A study of Homo sapiens with 12 samples.

Results

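The mRNAs of 47 DNA repair genes were read in LNCaP cells with siRNA against the paxillin gene PXN, with and without androgen. The genes were taken from a list of symbols for homologous recombination, the Fanconi pathway, end joining of broken DNA and mismatch repair. All 47 were among the 36137 genes of the count table, and all 47 had enough counts to be among the 18468 genes tested.

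LNCaP is an established androgen-sensitive line from a lymph node metastasis of prostate cancer. In all 4 groups the cells carried an siRNA for 48 h and were then kept without serum for 12 h. The siRNA was either non-specific or directed at PXN, which encodes paxillin, an adaptor protein of focal adhesions. Treatment lasted 24 h, with 2.5 nM of the androgen dihydrotestosterone (DHT) or with ethanol as vehicle. The 4 groups, each with 3 libraries, were non-specific siRNA with vehicle, non-specific siRNA with DHT, PXN siRNA with vehicle and PXN siRNA with DHT. The labels do not say whether replicates were grown separately, and the spread behind each p-value may therefore be technical.

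Breaks through both DNA strands are repaired by copying the sister chromatid, which is homologous recombination, or by joining the ends directly. Recombination needs a replicated chromosome and its genes are mostly transcribed in S and G2 phase under E2F and DREAM control, whereas the Ku and ligase proteins of end joining act in every phase. The Fanconi proteins unhook crosslinked strands for recombination, and mismatch repair proteins remove copying errors behind the replication fork. On this background 21 members were classed as cell-cycle-linked and 26 as constitutive, and 17 of each class were placed with less doubt. The classes were drawn up with earlier results of these data known, so what follows on them is a description and carries no test.

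The promoter stretches below belong to members described in full that hold a word bound by E2F factors. The words searched on both strands were TTTCCCGC, TTTGGCGC, TTTCGCGC and TTTGCCGC, in windows of 250 bases before to 50 bases after each RefSeq start (GRCh38.p14). Each stretch reads 5′ to 3′ on the strand of the gene, with the E2F word in capitals.
EXO1 (chr1:241848154-241848233, plus strand): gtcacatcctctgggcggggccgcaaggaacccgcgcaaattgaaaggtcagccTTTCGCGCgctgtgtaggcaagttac
FANCA (chr16:89816776-89816855, minus strand): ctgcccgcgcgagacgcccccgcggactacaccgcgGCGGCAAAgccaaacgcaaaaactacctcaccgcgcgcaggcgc
FANCD2 (chr3:10026387-10026466, plus strand): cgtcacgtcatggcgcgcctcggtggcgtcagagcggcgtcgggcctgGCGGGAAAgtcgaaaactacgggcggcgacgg
MSH6 (chr2:47783095-47783174, plus strand): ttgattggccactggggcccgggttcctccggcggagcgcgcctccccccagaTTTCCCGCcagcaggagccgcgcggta
PMS2 (chr7:6009106-6009185, minus strand): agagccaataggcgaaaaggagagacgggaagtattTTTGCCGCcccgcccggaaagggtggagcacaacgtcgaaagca
The word began 4 bases after the start in EXO1, 3 bases after it in MSH6, 2 bases before it in FANCD2, 172 before it in FANCA, and in PMS2 100 or 43 before it, as counted from its 2 RefSeq starts. Promoters were matched for 41 of the 47 members, and 8 of the 41 (19.5%) held an E2F word. These were EXO1, FANCA, FANCD2, XRCC2, MSH6, XRCC6, PMS2 and FANCC. Over all 27167 genes with a promoter, a set not limited to tested genes or matched for base content, the share was 3.97%. It was 5 of 19 (26.3%) in the cell-cycle-linked class and 3 of 22 (13.6%) in the constitutive class. The CHR words TTTGAA and TTCGAA were in 12.2% of the members' genes and 19.6% of all genes, and CCAAT was in 51.2% and 39.8%. None of the 9 E2F words overlapped a CHR or CCAAT word. A match of letters is a description of these windows and not a binding site.

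PXN was read first as a check of the siRNA labels. Under vehicle its level was 112, 106 and 108 CPM (counts scaled to library size) with non-specific siRNA and 15.2, 21.2 and 14.9 CPM with PXN siRNA. Under DHT it was 113, 99.7 and 104 CPM and 19.96, 18.1 and 16.6 CPM. The groups did not overlap, and PXN was 6.34-fold lower under vehicle and 5.80-fold lower under DHT (edgeR quasi-likelihood test, two-sided, adjusted p = 7.73e-09 and 9.52e-09). Of the 6 PXN siRNA libraries, replicate 2 with vehicle kept the most PXN, and counts are given below with and without it. Library totals were 34321000 to 38633456 counts, so that 1 CPM stood for 33.65 to 38.2 counts, and the members took 0.313 to 0.332% of the counts with non-specific siRNA and vehicle and 0.230 to 0.248% with PXN siRNA and vehicle.

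The first comparison asks which repair mRNAs differed with PXN siRNA without added androgen. Paxillin protein is not measured in these libraries. Of the 47 members, 34 fell with PXN siRNA, 2 rose and 11 did not pass the threshold, an adjusted p under 0.05. Over all tested genes 26.3% were called lower and 23.9% higher. Of the members 17 fell at least 2-fold, against 3.91% of all tested genes. Recombination and Fanconi genes made up most of the large falls, while the kinase ATM and the ligase LIG4 were the members that rose. In 34 members each PXN siRNA library lay below each non-specific library, against 29.6% of all tested genes.

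Both classes held members that fell, but by different amounts. In the cell-cycle-linked class 20 of 21 fell, with a median log2 fold change of -1.66 over the class, and 16 of them fell at least 2-fold. In the constitutive class 14 of 26 fell, 2 rose and 10 did not pass, with a median of -0.21, and XRCC5 was its single member with a fall of 2-fold or more. The median over all tested genes was 0.018. Over the 17 members of each class placed with less doubt the medians were -1.76 and -0.18. Among genes with a mean of 10 to 100 CPM the classes were as far apart. The median there was -1.66 for 13 cell-cycle-linked members, -0.18 for 19 constitutive members and -0.073 for all 7351 genes. At 1 to 10 CPM it was -1.92 for 7 cell-cycle-linked and -0.41 for 2 constitutive members, and 0.15 for all genes. Over 100 CPM the order was the reverse, at -0.32 for 1 cell-cycle-linked member (BARD1) and -0.68 for 5 constitutive members, and -0.15 for all genes.

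**Figure D1:**
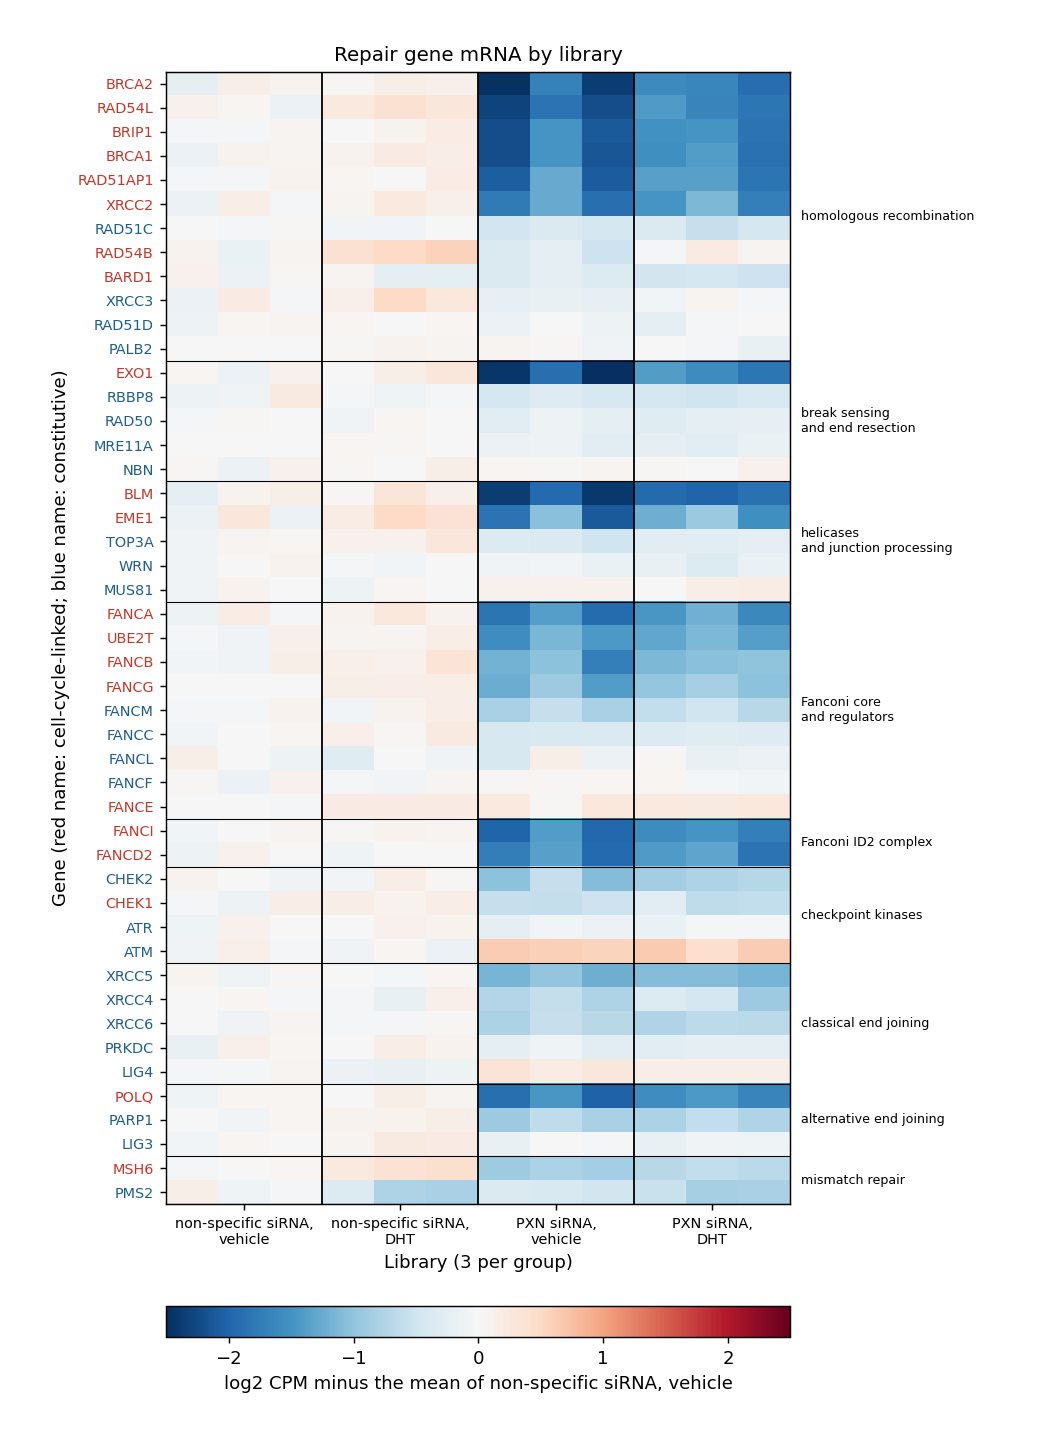
Log2 CPM of each member in each of the 12 libraries, minus its mean with non-specific siRNA and vehicle. Rows are genes grouped by role, red names are cell-cycle-linked and blue names constitutive. Blue cells fill most rows of the recombination and Fanconi groups in the 6 PXN siRNA libraries, and the rows of ATM and LIG4 are pale red there.

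Among the recombination genes, BRCA2, which loads the strand-exchange protein onto single-stranded DNA, was at 17.2, 22.1 and 21.4 CPM with non-specific siRNA and 3.60, 6.19 and 3.84 CPM with PXN siRNA under vehicle. The groups were well apart, though replicate 2 of PXN siRNA was the highest of its group. BRCA2 (chromosome 13, 32315474 to 32400266, plus strand, GRCh38) thus fell 4.45-fold (log2 fold change -2.15 ± 0.17, SE, edgeR adjusted p = 2.35e-07). RAD54L, a translocase that helps the strand invade its template, was at 14.05, 13.5 and 11.9 CPM against 2.59, 3.61 and 2.77 CPM, and fell 4.39-fold (-2.13 ± 0.13, adjusted p = 7.79e-08). Of its exonic bases 25.1% overlap LRRC41 on the other strand. BRCA1, the ubiquitin ligase and scaffold that promotes recombination, went from 46.3 ± 4.21 to 12.3 ± 3.73 CPM (mean ± SD, n = 3), and the helicase BRIP1 from 12.6 to 3.33 CPM. BARD1, the partner that BRCA1 needs as a ligase, fell only from 210.1 ± 18.3 to 168 ± 7.61 CPM, a log2 fold change of -0.32 ± 0.084 (SE) against -1.91 ± 0.16 for BRCA1. Of the 12 recombination members 9 fell. RAD54B, at 3.56, 2.98 and 3.51 CPM against 2.59, 2.83 and 2.33 CPM, was among them (-0.37 ± 0.14, adjusted p = 0.0349). Its call was lost without replicate 1 or 3 of either group (0.0618 to 0.106). It was also lost under upper-quartile scaling (0.106), with no low-count filter (0.0761), with only the groups compared (0.0846) and in DESeq2's Wald test (0.0605).

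The members of this group that did not pass were PALB2, RAD51D and XRCC3. PALB2, the bridge between BRCA1 and BRCA2, was at 15.6, 15.8 and 15.5 CPM with non-specific siRNA and 16.3, 16.04 and 14.8 CPM with PXN siRNA under vehicle, with overlapping values (0.0071 ± 0.075, adjusted p = 0.946). RAD51D, a paralogue of the strand-exchange protein, was at 12.9, 14.6 and 14.8 CPM and 12.8, 13.97 and 12.97 CPM (-0.094 ± 0.088, adjusted p = 0.394). XRCC3, another paralogue, had a log2 fold change of -0.21 ± 0.10 (adjusted p = 0.117), or 0.0304 with the replicate number as a block and 0.0397 without replicate 1 of the control. It shares 76.7% of its exonic bases with KLC1 on the other strand, and its counts are uncertain if strand was not used in counting. RAD51C, by contrast, fell from 42.6 ± 0.991 to 31.6 ± 1.28 CPM and XRCC2, which works in a complex with RAD51D, from 19.5 ± 2.17 to 6.33 ± 1.55 CPM.

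Of the 5 genes that sense ends and trim them, EXO1 stood apart. This exonuclease, which digests one strand away from a break or a mismatch, was at 12.8, 11.3 and 13.3 CPM with non-specific siRNA and 2.26, 3.31 and 2.12 CPM with PXN siRNA under vehicle. The libraries did not overlap and EXO1 (chromosome 1, 241847967 to 241895148, plus strand) fell 4.86-fold (-2.28 ± 0.16, adjusted p = 1.13e-07), the lowest log2 fold change of the 47 members. RBBP8, also called CtIP, which starts the trimming, was at 24.05, 24.9 and 30.6 CPM against 19.3, 21.1 and 19.9 CPM and fell 1.32-fold (-0.40 ± 0.086, adjusted p = 0.00142). The subunits of the MRN end-binding complex moved little. MRE11A went from 38.4 ± 0.282 to 34.02 ± 1.73 CPM and RAD50 from 88.6 ± 2.16 to 76.5 ± 3.86 CPM, both called lower (adjusted p = 0.0185 and 0.00685). Under upper-quartile scaling neither passed (adjusted p = 0.276 and 0.117), nor did MRE11A without replicate 3 of PXN siRNA with vehicle (0.0629). MRE11A also did not pass with no low-count filter (0.0632) or with only the groups compared (0.0671). NBN, the third subunit, was at 80.7, 71.4 and 84.2 CPM and 80.8, 80.6 and 82.6 CPM, with overlapping values (0.046 ± 0.066, adjusted p = 0.588).

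Of the 5 helicase and junction enzyme genes 3 fell, by different amounts. BLM, the helicase that takes joined molecules apart, was at 6.53, 8.25 and 8.55 CPM with non-specific siRNA and 1.44, 1.96 and 1.41 CPM with PXN siRNA under vehicle, and fell 4.83-fold (-2.27 ± 0.16, adjusted p = 1.12e-07). TOP3A, the topoisomerase that works with BLM, was also called lower, from 38.5 ± 2.21 to 29.1 ± 1.73 CPM (-0.40 ± 0.070, SE). MUS81 and EME1, which form one nuclease, differed. EME1, the regulatory subunit, was at 6.47, 8.76 and 6.50 CPM against 1.96, 3.45 and 1.62 CPM and fell 3.10-fold (-1.63 ± 0.23, adjusted p = 4.96e-05). MUS81, the catalytic subunit, was at 27.6, 30.9 and 29.3 CPM against 31.6, 31.7 and 31.6 CPM, each PXN siRNA library being slightly above each control library (0.11 ± 0.072, adjusted p = 0.209). EME1 shares 16.4% of its exonic bases with LRRC59 and MUS81 13.9% with CFL1, both on the other strand. WRN, a helicase mutated in Werner syndrome, did not pass (-0.11 ± 0.070, adjusted p = 0.201).

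Fanconi core genes were split as well, with 6 of 9 lower. FANCA, a scaffold of the core ubiquitin ligase, was at 18.9, 23.4 and 19.9 CPM with non-specific siRNA and 5.75, 7.97 and 5.39 CPM with PXN siRNA under vehicle, and fell 3.26-fold (-1.70 ± 0.14, adjusted p = 4.14e-07). UBE2T is the ubiquitin-conjugating enzyme that works with the ligase subunit FANCL. It was at 41.7, 40.8 and 47.1 CPM against 14.7, 19.5 and 15.8 CPM and fell 2.59-fold (-1.37 ± 0.10, adjusted p = 1.44e-07). FANCB and FANCG also fell more than 2-fold (-1.31 and -1.17 on the log2 scale), whereas FANCM and FANCC fell less (-0.73 and -0.38). FANCA shares 23.6% of its exonic bases with ZNF276 on the other strand.

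FANCE, FANCF and FANCL did not pass. FANCE, which binds FANCD2, was the cell-cycle-linked member outside the fall: it was at 11.4, 11.3 and 11.1 CPM against 13.3, 11.4 and 13.6 CPM (0.18 ± 0.081, adjusted p = 0.0743), and passed as higher under upper-quartile scaling (adjusted p = 0.00982), with a mean of at least 1 CPM required (0.0279) and without replicate 2 of PXN siRNA with vehicle (0.0192). FANCF was at 40.3, 35.4 and 42.4 CPM and 39.998, 39.97 and 40.8 CPM (0.034 ± 0.070, adjusted p = 0.715). FANCL was at 7.49, 6.65 and 6.13 CPM and 5.12, 7.51 and 6.12 CPM (-0.11 ± 0.14, adjusted p = 0.541). Both had overlapping groups, and both share more than 10% of their exonic bases with a gene on the other strand.

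FANCD2 and FANCI form the clamp onto which the core complex puts ubiquitin, and both fell. FANCI was at 79.4, 83.2 and 87.1 CPM with non-specific siRNA and 20.7, 31.6 and 21.3 CPM with PXN siRNA under vehicle (3.39-fold lower, -1.76 ± 0.12, adjusted p = 1.13e-07). FANCD2 was at 44.5, 52.2 and 49.1 CPM against 14.6, 18.9 and 12.5 CPM (3.17-fold lower, -1.66 ± 0.14, adjusted p = 4.6e-07). In both genes replicate 2 of PXN siRNA was the highest of its group, and still below every control library.

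**Figure D2:**
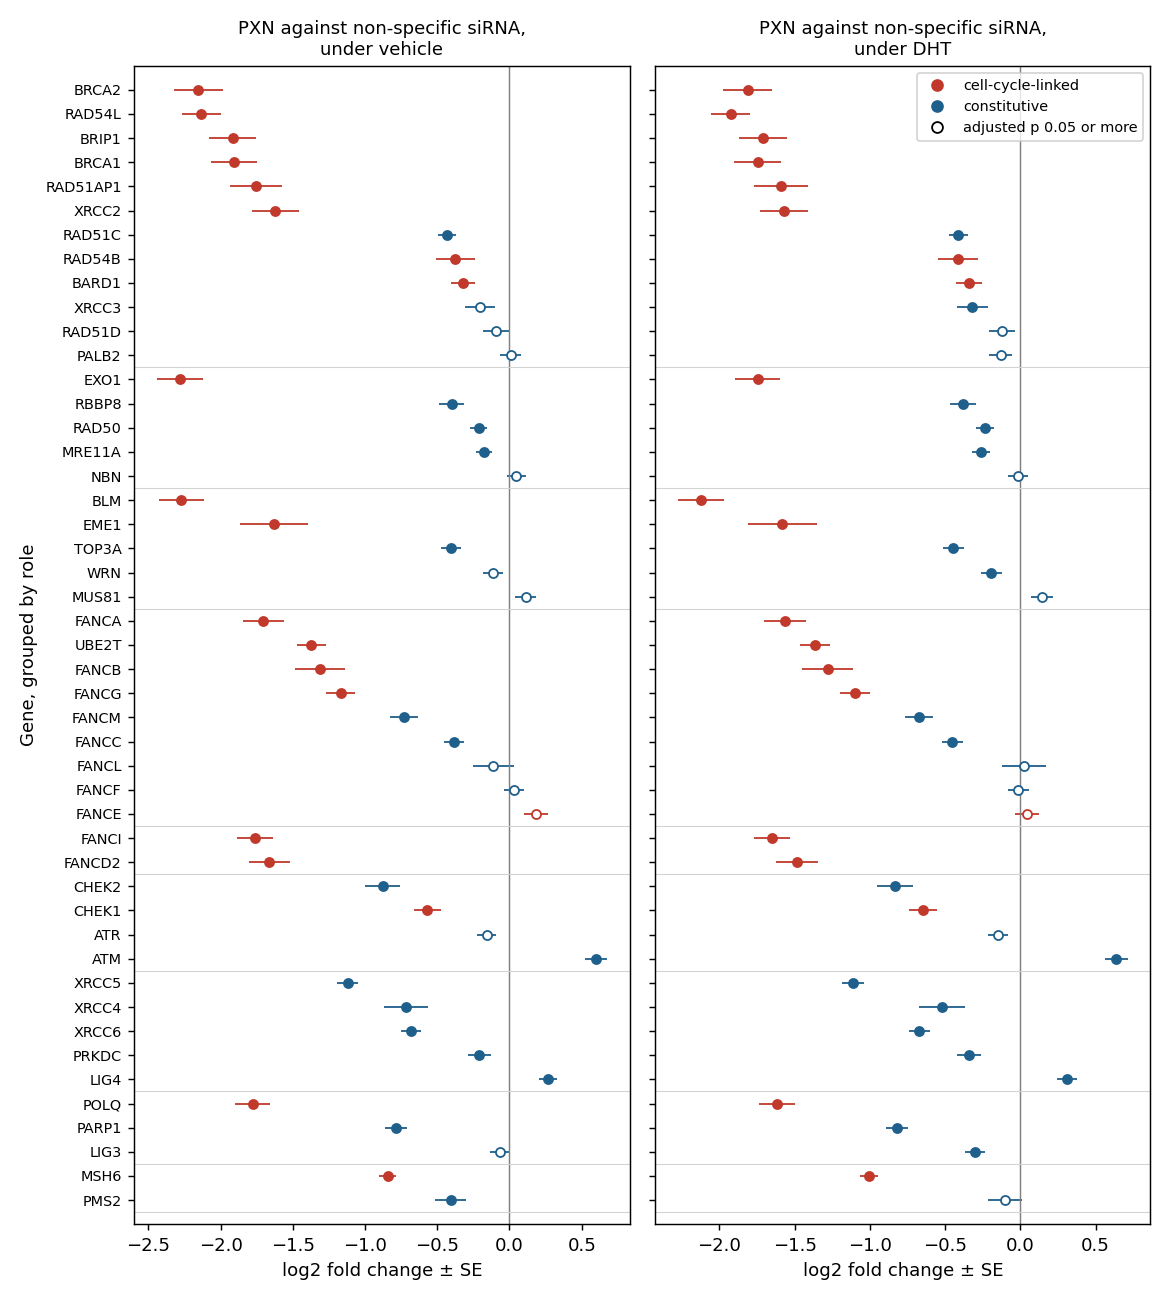
Log2 fold change of each member for PXN against non-specific siRNA, under vehicle (left) and under DHT (right), with bars of 1 SE. Filled points passed an adjusted p of 0.05, red is cell-cycle-linked and blue constitutive. EXO1 and BLM lie farthest left under vehicle, at -2.28 and -2.27, and ATM farthest right at 0.60.

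The 4 checkpoint kinases went in different directions. ATM, which is activated by broken ends, was at 75.6, 88.4 and 79.2 CPM with non-specific siRNA and 126, 123 and 119 CPM with PXN siRNA under vehicle. Each PXN siRNA library was above each control library, and ATM (chromosome 11, 108222484 to 108369102, plus strand) rose 1.51-fold (0.60 ± 0.078, adjusted p = 2.12e-05). CHEK2, the kinase that ATM activates, was at 19.5, 18.3 and 17.2 CPM against 9.02, 12.3 and 8.63 CPM and fell 1.84-fold (-0.88 ± 0.12, adjusted p = 3.3e-05). CHEK1, activated by ATR, fell from 31.9 ± 3.33 to 21.5 ± 0.522 CPM (-0.57 ± 0.093). ATR, which responds to single-stranded DNA, was at 63.5, 73.05 and 67.96 CPM and 57.4, 64.5 and 61.3 CPM, with overlap (-0.16 ± 0.066, adjusted p = 0.0607). It passed with the replicate number as a block (0.00733), and also when any 1 of 8 of the 12 libraries was left out (0.0181 to 0.0452), so its call is near the threshold.

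In the classical end joining group the DNA end binder fell and the ligase rose. XRCC5 and XRCC6 encode the Ku80 and Ku70 subunits of the ring that slides onto broken ends, and XRCC6 was the most abundant member per length, at 137 CPM per kb of exon with non-specific siRNA and vehicle, ahead of XRCC5 at 76.1 and PARP1 at 54.1. XRCC5 was at 436, 383 and 428 CPM against 185, 210.4 and 179 CPM with PXN siRNA, without overlap, and fell 2.17-fold (-1.12 ± 0.073, adjusted p = 8.92e-08). XRCC6 fell from 449 ± 23.8 to 279.8 ± 21.2 CPM (-0.68 ± 0.068, against -1.12 for XRCC5). XRCC4, the scaffold of the ligase, was at 4.75, 4.95 and 4.57 CPM against 2.83, 3.12 and 2.75 CPM (1.64-fold lower, -0.71 ± 0.15, adjusted p = 0.00125). LIG4, the ligase itself, was at 23.9, 24.1 and 25.8 CPM against 31.01, 27.8 and 29.9 CPM and rose 1.20-fold (0.27 ± 0.063, adjusted p = 0.00291). PRKDC, the kinase that Ku recruits, went from 457 ± 49.1 to 395 ± 23.4 CPM with overlapping libraries (adjusted p = 0.0392). Its call was lost under upper-quartile scaling (0.271), with a mean of at least 1 CPM required (0.0798) and with only the groups compared (0.0946). It was also lost without replicate 2 or 3 of the control or replicate 1 or 3 of PXN siRNA (0.0729 to 0.0917).

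In alternative end joining, POLQ fell most. This polymerase, which anneals short repeats at the ends, was at 33.5, 37.7 and 37.7 CPM with non-specific siRNA and 9.73, 13.2 and 8.84 CPM with PXN siRNA under vehicle (3.43-fold lower, -1.78 ± 0.12, adjusted p = 1.03e-07). PARP1, a sensor of strand breaks, was at 390.4, 369 and 403 CPM against 206, 249.5 and 219 CPM (1.72-fold lower, -0.79 ± 0.075, adjusted p = 1.24e-06). LIG3, the ligase of this route, did not pass (-0.067 ± 0.067, adjusted p = 0.43). It shares 29.1% of its exonic bases with RFFL on the other strand.

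Both mismatch repair members fell under vehicle. MSH6, a subunit of the complex that recognises mispaired bases, was at 49.1, 50.4 and 51.9 CPM with non-specific siRNA and 27.2, 29.2 and 27.9 CPM with PXN siRNA (1.80-fold lower, -0.84 ± 0.060, adjusted p = 1.22e-07). PMS2, the subunit that nicks the new strand, was at 113, 94.98 and 98.8 CPM against 79.2, 78.2 and 73.9 CPM (1.33-fold lower, -0.41 ± 0.11, adjusted p = 0.00661). PMS2 has 11 listed pseudogene copies in GENCODE 29, so its counts are uncertain. CHEK2, FANCD2, MRE11A, PARP1, RAD51AP1, RBBP8 and XRCC6 have such copies too.

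The second comparison repeats the siRNA contrast in the DHT libraries, and it shares no library with the first. Of the 47 members 36 fell, 2 rose and 9 did not pass, against 26.7% lower and 25% higher over all tested genes. Here 18 members fell at least 2-fold, against 4.04% of all tested genes. In the cell-cycle-linked class 20 of 21 fell (median -1.57), and in the constitutive class 16 of 26 fell and 2 rose (median -0.28), beside a median of 0.027 over all tested genes. FANCE was again the cell-cycle-linked member that did not pass (0.044 ± 0.080, adjusted p = 0.668).

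The member values of the 2 siRNA contrasts lay close together. Across the 47 members the log2 fold changes had a Pearson r of 0.989 and a Spearman rho of 0.977, given as a description over genes that are not independent and come from 1 fit. Correlations and calls shared by both contrasts were taken for the members only, so no share over all tested genes stands beside them. Singly, 26.3% of all tested genes were lower and 23.9% higher under vehicle, and 26.7% and 25% under DHT. In both contrasts 33 members were lower, ATM and LIG4 were higher, and 8 passed in neither (PALB2, RAD51D, NBN, MUS81, FANCE, FANCF, FANCL and ATR). Under DHT the log2 fold changes of these last 8 lay between -0.15 (ATR) and 0.14 (MUS81), with adjusted p from 0.0783 for ATR to 0.903 for FANCL. PMS2 was called lower under vehicle but not under DHT, and XRCC3, LIG3 and WRN were called lower under DHT but not under vehicle, and for none of the 4 was the difference between the contrasts past the threshold.

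BRCA2 and BLM fell strongly under DHT as well. BRCA2 was at 20.5, 22.4 and 22.02 CPM with non-specific siRNA and 6.64, 6.48 and 5.33 CPM with PXN siRNA under DHT (3.51-fold lower, -1.81 ± 0.16, adjusted p = 7.58e-07). BLM was at 7.92, 9.52 and 8.41 CPM and 1.97, 1.88 and 2.07 CPM (4.36-fold lower, -2.12 ± 0.15, adjusted p = 1.53e-07). Neither gene's groups overlapped, and the DHT libraries with PXN siRNA lay closer together than the vehicle ones. RAD54L was at 15.5, 17.1 and 15.9 CPM against 4.89, 4.16 and 3.70 CPM (3.80-fold lower), EME1 at 8.14, 10.2 and 9.21 against 3.04, 3.74 and 2.43 CPM (2.99-fold lower). XRCC5 was at 419, 399.7 and 427 CPM against 196, 195 and 186 CPM and fell 2.16-fold, nearly as under vehicle.

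FANCI, FANCD2, FANCA and UBE2T fell under DHT too. FANCI was at 84.8, 88.6 and 87.5 CPM against 27.8, 29.8 and 25.6 CPM (-1.65 ± 0.12), FANCD2 at 45.2, 49.04 and 48.2 against 18.05, 19.5 and 13.4 CPM (-1.48 ± 0.14). FANCA was at 21.9, 24.7 and 21.9 CPM against 7.55, 8.92 and 6.74 CPM (-1.56 ± 0.14), and UBE2T at 45.001, 45.2 and 48.6 against 17.5, 19.8 and 16.6 CPM (-1.36 ± 0.10). All 4 had non-overlapping groups, and the adjusted p of the edgeR test lay between 1.64e-07 (UBE2T) and 1.09e-06 (FANCD2).

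Among the remaining members described in full, POLQ fell 3.07-fold under DHT, from 37.9 ± 1.94 to 12.4 ± 0.947 CPM. PARP1 went from 417 ± 8.08 to 236 ± 15.6 CPM, CHEK2 from 18.9 ± 1.58 to 10.6 ± 0.603 CPM, XRCC4 from 4.67 ± 0.529 to 3.25 ± 0.650 CPM and RBBP8 from 25.2 ± 0.669 to 19.4 ± 0.762 CPM, all called lower. ATM, in the other direction, was at 75.9, 83.7 and 72.7 CPM with non-specific siRNA and 128, 108 and 125 CPM with PXN siRNA under DHT (1.56-fold higher, 0.64 ± 0.078, adjusted p = 1.11e-05). LIG4 was at 22.3, 21.5 and 22.6 CPM and 27.8, 27.3 and 27.3 CPM (1.24-fold higher, 0.31 ± 0.064, adjusted p = 0.000908). In both genes every PXN siRNA library was above every control library in each treatment.

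MSH6 was at 60.1, 64.7 and 67.04 CPM with non-specific siRNA and 31.1, 32.998 and 31.5 CPM with PXN siRNA under DHT (2.005-fold lower, -1.004 ± 0.059, adjusted p = 6.55e-08). PMS2 was at 79.99, 60.03 and 57.98 CPM against 68.9, 57.7 and 57.9 CPM, with overlap (-0.10 ± 0.11, adjusted p = 0.467). EXO1 was at 12.6, 13.9 and 15.2 CPM against 4.70, 4.16 and 3.54 CPM (3.35-fold lower, -1.75 ± 0.15, adjusted p = 5.37e-07). The fall of MSH6 was thus close to 2-fold and that of EXO1 larger, while PMS2 did not pass. RAD54B was at 4.34, 4.73 and 5.02 CPM against 3.25, 3.85 and 3.48 CPM (-0.41 ± 0.13, adjusted p = 0.0165). That call was lost without replicate 3 of the control or replicate 1 of PXN siRNA (0.0524 to 0.0531), and under upper-quartile scaling (0.0578).

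The 8 members that passed in neither contrast spanned scaffold, sensor and ligase roles. Under DHT the scaffold PALB2 was at 15.9, 16.6 and 16.4 CPM with non-specific siRNA and 15.7, 15.3 and 13.7 CPM with PXN siRNA, and RAD51D at 14.7, 14.1 and 14.7 and 11.9, 13.8 and 14.2 CPM. NBN was at 80.4, 78.9 and 87.3 CPM against 79.8, 79.1 and 84.7 CPM, and the kinase ATR at 68.3, 73.04 and 72.2 against 60.8, 65.6 and 66.4 CPM. Of these 4, PALB2 and ATR had every PXN siRNA library below every control library, with log2 fold changes of -0.13 and -0.15. MUS81 was at 26.9, 30.4 and 28.97 CPM against 29.01, 32.9 and 33.4 CPM and FANCE at 12.9, 13.1 and 13.02 against 13.4, 13.2 and 13.6 CPM. FANCF was at 38.6, 37.3 and 41.1 CPM against 40.7, 38.2 and 37.2 CPM and FANCL at 5.45, 6.78 and 6.33 against 6.92, 5.90 and 6.05 CPM. FANCE was slightly higher in each PXN siRNA library, and MUS81, FANCF and FANCL overlapped.

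**Figure D3:**
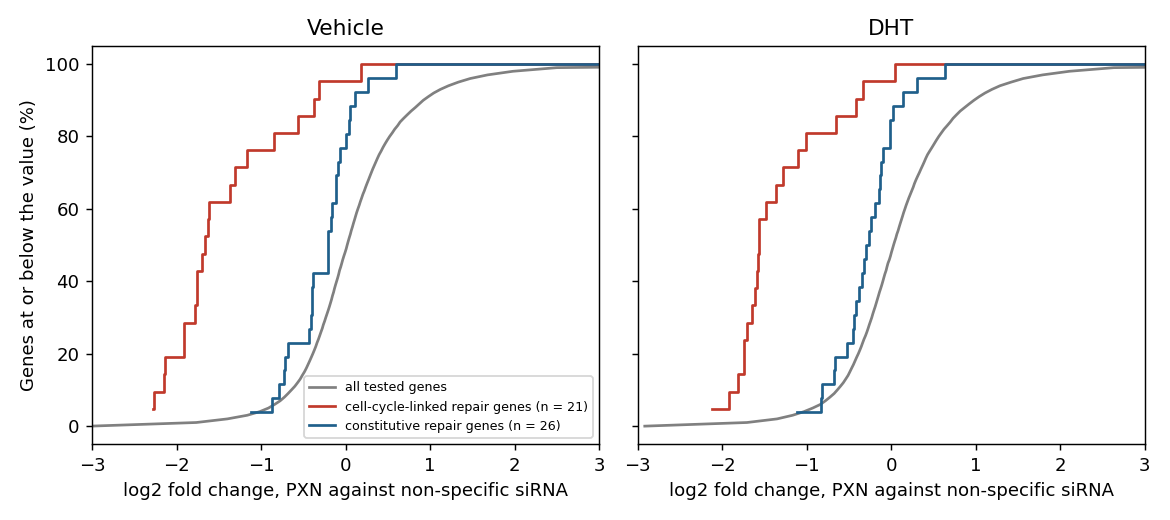
Cumulative share of genes (y axis, percent) at or below each log2 fold change for PXN against non-specific siRNA (x axis), under vehicle and under DHT. The curve of the cell-cycle-linked members lies far to the left of the others, with medians of -1.66 and -1.57 under vehicle and DHT. That of the constitutive members lies to the left of the grey curve of all tested genes over most of its range, with medians of -0.21 and -0.28 against 0.018 and 0.027.

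The fall was not equal in the 3 libraries with PXN siRNA and vehicle. The median of the cell-cycle-linked members, relative to their mean with non-specific siRNA and vehicle, was -1.84 and -1.95 in replicates 1 and 3 and -1.26 in replicate 2, the library with the most PXN left. With PXN siRNA and DHT it was -1.39, -1.21 and -1.66 in replicates 1 to 3. There replicate 1 kept the most PXN, whereas replicate 2 was the least low. The constitutive members lay at -0.26, -0.13 and -0.25 with PXN siRNA and vehicle. Replication genes were also least low in replicate 2, at -1.52, -1.13 and -1.49 in replicates 1 to 3. Without replicate 2 of PXN siRNA with vehicle, 35 members were lower and 3 higher under vehicle, against 26.1% and 21.6% of all genes tested in that fit. The class medians were then -1.91 and -0.27. The part of the remaining PXN in these differences was not tested.

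**Figure D4:**
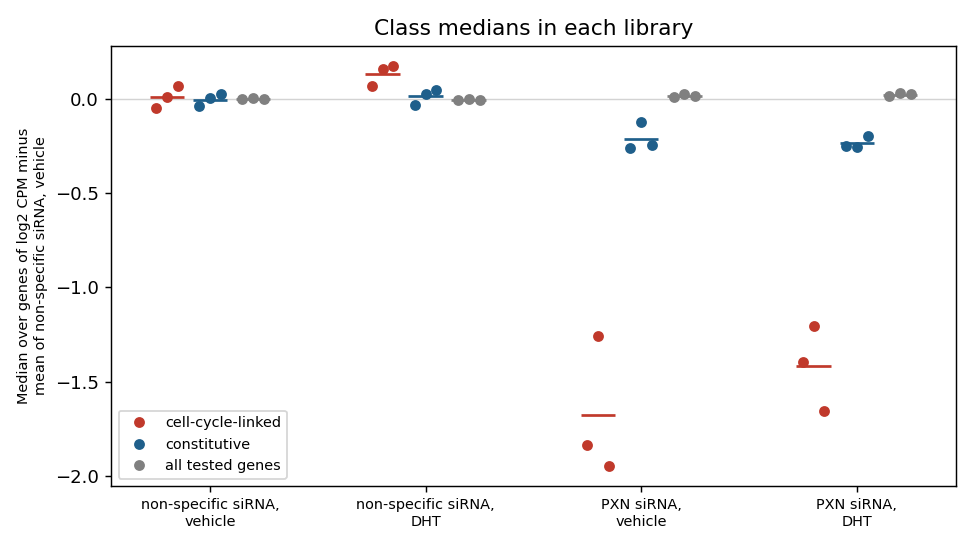
Median over each class of log2 CPM minus the mean with non-specific siRNA and vehicle (y axis), for each library of the 4 groups (x axis), with a line at the group mean. The cell-cycle-linked class (red) sits between -1.95 and -1.21 in the 6 PXN siRNA libraries, below the constitutive class (blue, -0.26 to -0.13) and all tested genes (grey).

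The third comparison asks what DHT did with non-specific siRNA. Of the 47 members 2 rose (MSH6 and RAD54B), 1 fell (PMS2) and 44 did not pass, against 2.72% higher and 2.16% lower over all tested genes. The count is small and near those shares. MSH6 was at 49.1, 50.4 and 51.9 CPM with vehicle and 60.1, 64.7 and 67.04 CPM with DHT, with no overlap, and rose 1.27-fold (0.34 ± 0.058, adjusted p = 0.00331). It overlaps FBXO11 on the other strand over 16.2% of its exonic bases. PMS2 was at 113, 94.98 and 98.8 CPM with vehicle and 79.99, 60.03 and 57.98 CPM with DHT, again with no overlap, and fell 1.55-fold (-0.63 ± 0.11, adjusted p = 0.00377). So the 2 mismatch repair members went in opposite directions with DHT.

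RAD54B, a relative of RAD54L and the least abundant member per length at 0.630 CPM per kb of exon with non-specific siRNA and vehicle, was at 3.56, 2.98 and 3.51 CPM with vehicle and 4.34, 4.73 and 5.02 CPM with DHT. It rose 1.40-fold (0.49 ± 0.13, adjusted p = 0.0478), higher in 3 of 3 libraries. This call was lost when any 1 of 10 of the 12 libraries was left out, with adjusted p from 0.0522 to 0.193. With the replicate number as a block, 4 members passed as higher: XRCC3 (0.30) and LIG3 (0.17) joined MSH6 and RAD54B, with adjusted p of 0.0122 and 0.0164. Over all tested genes the block called 6.17% higher, so 4 of 47 members is near that share.

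With PXN siRNA no member passed for DHT against vehicle in the edgeR test, and 0.184% of all tested genes did, while 7 members had an unadjusted p under 0.05, against 7.46% of all tested genes. EXO1 was at 2.26, 3.31 and 2.12 CPM with vehicle and 4.70, 4.16 and 3.54 CPM with DHT, with no overlap (0.69 ± 0.17, adjusted p = 0.162). It passed in DESeq2's Wald test (0.0134) and with the replicate number as a block (0.0473). MSH6 was at 27.2, 29.2 and 27.9 CPM and 31.1, 32.998 and 31.5 CPM (0.18 ± 0.060, adjusted p = 0.401), and RAD54B at 2.59, 2.83 and 2.33 CPM and 3.25, 3.85 and 3.48 CPM (0.45 ± 0.14, adjusted p = 0.338). PMS2 was at 79.2, 78.2 and 73.9 CPM and 68.9, 57.7 and 57.9 CPM (-0.33 ± 0.11, adjusted p = 0.425), and passed as lower with the block (0.0126). Without replicate 2 of PXN siRNA with vehicle, 3 members passed as higher, namely BRCA2, EXO1 and FANCI, against 0.376% of all genes tested in that fit.

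Small positive values with DHT were frequent in the cell-cycle-linked class. With non-specific siRNA 19 of its 21 members had a log2 fold change above 0 (median 0.144), and with PXN siRNA 20 of 21 did (median 0.230), against 47.8% and 47.9% of all tested genes. The median was 0.083 with non-specific siRNA without replicate 1 of the vehicle group. With PXN siRNA it was 0.412 without replicate 2 and 0.127 without replicate 3 of the vehicle group. The constitutive class had medians of 0.016 and -0.0083. With non-specific siRNA replication genes had a median of 0.194 and mitotic and G2/M genes one of -0.0080. With PXN siRNA these were 0.184 and 0.194. These are counts of signs with no test: most members did not pass, and the members share the same libraries and are not independent. By library, the cell-cycle-linked medians with PXN siRNA overlapped between vehicle (-1.95 to -1.26) and DHT (-1.66 to -1.21). With non-specific siRNA they were -0.049 to 0.065 and 0.068 to 0.174.

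The interaction, the difference between the DHT response with PXN siRNA and that with non-specific siRNA, passed for no member in the edgeR test, and 0% of all tested genes passed. Below an unadjusted threshold of 0.05 were EXO1 (0.54 ± 0.22) and LIG3 (-0.23 ± 0.094), beside 4.21% of all tested genes. MSH6 had a difference of -0.16 ± 0.084 and PMS2 of 0.31 ± 0.16, so a DHT response that passed with non-specific siRNA alone was not shown to differ between the siRNAs. No member passed for the interaction under DESeq2's Wald test, limma-voom or the block either.

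**Figure D5:**
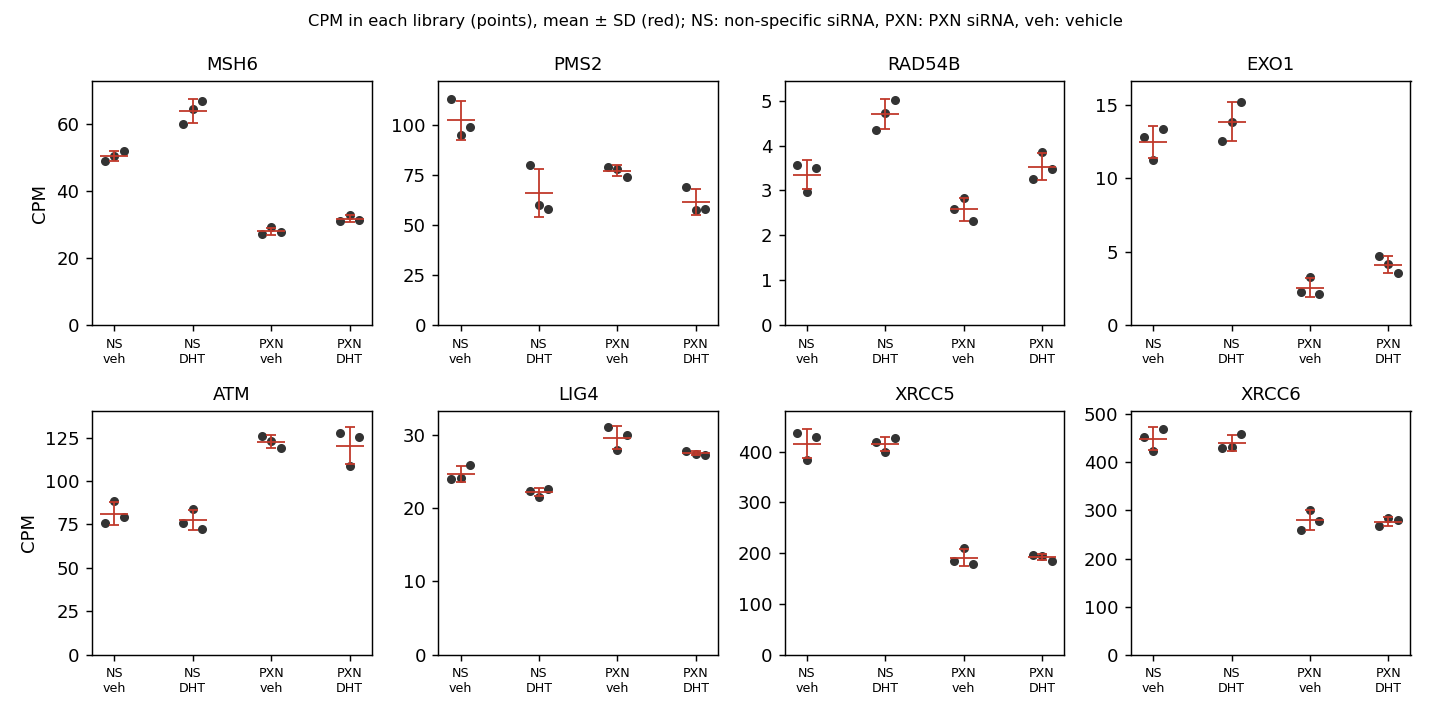
CPM of 8 members in each library (points) with mean and SD (red) in the 4 groups (NS, non-specific siRNA; veh, vehicle). MSH6 rises and PMS2 falls with DHT under non-specific siRNA, EXO1, XRCC5 and XRCC6 are lower with PXN siRNA, and ATM and LIG4 are higher.

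Genes around these pathways were read from lists. Of 38 tested genes of other break and crosslink repair steps, 23 fell and 3 rose under vehicle (median -0.32). Under DHT 22 fell and 3 rose (median -0.36). Over all tested genes 26.3% were lower and 23.9% higher under vehicle, and 26.7% and 25% under DHT. CLSPN, the adaptor through which ATR activates CHEK1, was at 14.5, 13.9 and 16.3 CPM with non-specific siRNA and 2.07, 3.80 and 2.43 CPM with PXN siRNA under vehicle (-2.43 ± 0.17, adjusted p = 1.22e-07). MDC1, which spreads the break signal on chromatin, was at 85.7, 96.4 and 91.3 CPM against 33.9, 42.3 and 33.4 CPM (-1.32 ± 0.10, adjusted p = 1.51e-07). The genes that rose were ERCC4, DCLRE1C and RAD17.

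Cell cycle genes moved with the members. All 27 genes of replication and G1/S fell under vehicle (median -1.36), with TK1 and RRM1 at -1.91 ± 0.11 and -1.12 ± 0.068, as did all 20 mitotic and G2/M genes (median -2.08), with BUB1B and CCNB1 at -2.19 ± 0.14 and -1.72 ± 0.12. Under DHT all 27 and all 20 fell as well (medians -1.37 and -1.92). Of 18 regulators of the E2F, DREAM and B-MYB complexes 11 fell and 1 rose under vehicle. The shares over all tested genes were 26.3% lower and 23.9% higher. MYBL2 and FOXM1 were at -2.39 ± 0.15 and -2.10 ± 0.16. The median of the cell-cycle-linked repair genes, -1.66, lay between those of the replication and the mitosis lists. In bulk RNA fewer cells in S and G2 phase and less of each mRNA per cell cannot be told apart, and the part of the cell cycle in the members' falls was not tested.

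The cell type was checked on marker lists, beside shares of 26.3% lower and 23.9% higher over all tested genes under vehicle. Of 8 prostate epithelial markers 6 fell under vehicle, among them KLK3 (649 ± 165 to 140.1 ± 53.1 CPM), and all 8 were tested. Of 11 markers of stromal, endothelial, blood and basal cells 6 were tested, of which 2 rose (COL1A1, 0.57, and TAGLN, 0.56) and 2 fell (LUM, -2.22, and COL3A1, -0.80). Their summed level was 45.7 to 54.8 CPM with non-specific siRNA and vehicle and 61.9 to 64.2 CPM with PXN siRNA and vehicle. DCN, PECAM1, PTPRC, KRT5 and TP63 had at most 3 counts in any library. LUM had 2 to 29 counts, so its change lies near the floor. The part of these markers in the members' changes was not tested.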

How the data were processed

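RNeasy Plus Mini kits (RNA) and TruSeq Stranded mRNA kits (libraries) were used for the 12 LNCaP samples, per the labels' protocols. What the authors deposited are raw integer counts for each gene symbol, made with featureCounts of Subread 1.5.0p3 after Trimmomatic 0.32 and STAR 2.4.2a on GRCh38, per the submitters' processing notes. The gene annotation, the strand setting and the treatment of multiply mapped reads are stated nowhere in the labels or notes used, so counts of genes that overlap another gene or have near-identical copies are less certain.

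From these counts 1 model with 4 group means (8 residual degrees of freedom) was fitted in R 4.3.3 with edgeR 4.0.16 (filterByExpr, TMM, quasi-likelihood F test, two-sided). P-values were adjusted by Benjamini-Hochberg over all 18468 tested genes, and 17669 genes with low counts were left out. CPM were computed on TMM-scaled library sizes. The SE printed after a log2 fold change was derived from the F value, as the absolute change over the root of F. Replicates differed by more than counting error in all pairs (chi-square per gene 6.03 to 26.6).

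The members, the classes and the gene lists were chosen with earlier results of these data known. Full values are given for the 2 members per role group with the largest change under vehicle (at least 1 CPM), for members that rose with PXN siRNA, for those called with DHT and for those called in neither siRNA contrast, and for 2 genes per list with the smallest p. Other genes named beside them were picked for their role or after their values were seen.

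All printed values come from the fit without a block unless the block is named. Whether same-numbered libraries deviate together was checked, and a contrast counted as paired where every pair correlated over 0.1. This held for PXN siRNA under vehicle (0.121 to 0.210), DHT with non-specific siRNA (0.145 to 0.383) and DHT with PXN siRNA (0.100 to 0.307), but not for PXN siRNA under DHT (0.0769 to 0.284). The labels do not say what the number marks.

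Alternatives were DESeq2 1.42.0 (size factors, Wald test), upper-quartile scaling, other low-count filters, limma-voom (limma 3.58.1), the replicate block, separate fits for each pair of groups, a test beyond a 1.5-fold change, an adjusted p under 0.01, the members classed with less doubt, leaving out each library and, chosen after seeing the data, only members with at most 10% exon overlap. Positions and exonic lengths come from GENCODE 29, which may differ from the authors' annotation, and promoters from RefSeq, with searches in Python 3.11.15.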

Additional observations from a re-analysis of the deposited data

How the results depend on the processing

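No called member changed direction in any alternative run. Of the members called for PXN siRNA, 32 of 36 under vehicle and 34 of 38 under DHT passed in every alternative other than the test against a fold change of 1.5. The exceptions were RAD54B, MRE11A, RAD50 and PRKDC under vehicle and RAD54B, XRCC3, RAD50 and WRN under DHT. Under DHT upper-quartile scaling lost the calls of XRCC3, RAD50 and WRN (edgeR adjusted p = 0.105, 0.0708 and 0.298). WRN also did not pass there with no low-count filter (0.0735), with a mean of at least 1 CPM required (0.0633) or with only the groups compared (0.0610). Against a fold change of 1.5, 20 members were lower and 0 higher under vehicle, 19 lower and 0 higher under DHT, while 4.71% of all tested genes were lower and 5.89% higher under vehicle, and 5.04% and 7.06% under DHT. The same test called 0 lower and 0 higher for the DHT response of non-specific siRNA cells.

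Upper-quartile scaling moved the median of all tested genes from 0.018 to 0.117 under vehicle and from 0.027 to 0.130 under DHT, and the split of all genes from 4853 lower and 4423 higher to 3754 lower and 5668 higher under vehicle, and from 4939 and 4622 to 3850 and 5952 under DHT. Under it 30 members were lower and 4 higher under vehicle (MUS81 and FANCE being added), and the constitutive medians were -0.11 under vehicle and -0.18 under DHT. Over the members classed with less doubt the constitutive median under DHT was -0.23.

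For DHT with non-specific siRNA 1 member was higher, not 2, with no low-count filter, with only the groups compared, at an adjusted p under 0.01 and among members with at most 10% exon overlap. With the replicate number as a block it was 4, and for DHT with PXN siRNA the block gave 1 lower (PMS2) and 1 higher (EXO1). In the latter contrast the block called 0.525% of all tested genes lower and 1.35% higher. EXO1 was also the 1 member higher there with no low-count filter and in DESeq2's Wald test. For PXN siRNA the block gave 36 lower and 2 higher under vehicle and 37 lower and 3 higher under DHT. Over all tested genes the block called 29.4% lower and 28.2% higher under vehicle, and 29.8% and 29.1% under DHT. It changed no call other than those of XRCC3, ATR, MUS81, LIG3, EXO1 and PMS2.

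Leaving out 1 library at a time gave 31 to 35 members lower and 2 to 3 higher under vehicle, 34 to 37 lower under DHT, 0 to 3 higher for DHT with PXN siRNA and 1 to 3 higher for DHT with non-specific siRNA. Over all tested genes these fits called 23.3 to 26.9% lower and 18.1 to 22.9% higher under vehicle, and 24.4 to 27.9% lower under DHT. For DHT they called 0.0529 to 0.376% higher with PXN siRNA and 1.53 to 3.61% higher with non-specific siRNA. The count of 3 with PXN siRNA came without replicate 2 of PXN siRNA with vehicle. XRCC3 lost its call under DHT without replicate 2 of the control (adjusted p = 0.0715), and WRN without replicate 3 of the control or replicate 2 of PXN siRNA (0.0761 to 0.1002). Constitutive medians were -0.27 to -0.19 under vehicle and -0.33 to -0.26 under DHT, and cell-cycle-linked medians -1.91 to -1.56 and -1.69 to -1.46. For DHT with non-specific siRNA the cell-cycle-linked median was 0.083 to 0.178, and with PXN siRNA 0.127 to 0.412. The cause of these shifts was not tested. FANCB, RAD54B and XRCC4 had a mean under 5 CPM in each group, where small differences are least detectable.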
